A study of Drosophila melanogaster with 2 samples.

Results

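The nuclear genes for the proteins of the mitochondrial ribosome were examined for binding of CG7745-GFP in Drosophila melanogaster embryos. They were taken by symbol: every protein-coding gene whose symbol starts with mRpL (named for the large subunit) or mRpS (named for the small subunit). This gave 73 of the 13945 protein-coding genes on the main chromosome arms, 47 mRpL and 26 mRpS. Subunits were read from the symbol and not from structures. The rule uses the symbol alone and no measured value, although the group was chosen for study with earlier results of these data known. The samples were 2 ChIP-seq libraries, biological replicates 2 and 3, made from 0 to 12 hour whole embryos of flies with a stable transgene, CG7745 with GFP fused to its C-terminus. ChIP-seq recovers the DNA fixed to a chosen protein by immunoprecipitation, and peaks mark where its reads pile up. The antibody was against GFP according to the sample description, whereas the antibody field of the same labels gives CG7745. The labels name 1 donor line for both replicates and no second genotype, treatment or age, so the design has 1 group (n = 2). Both replicates were set against the same control. Because whole embryos of mixed ages were used, a peak cannot be assigned to a cell type or stage.

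Mitochondrial ribosomes translate the few proteins encoded in mitochondrial DNA, which are core subunits of the respiratory chain and of ATP synthase. Their rRNAs are transcribed inside the organelle, but all of the proteins scored here are encoded in the nucleus and imported. Many of them have a bacterial counterpart of the same number, while others are found only in mitochondrial ribosomes.

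The stretches under reproducible summits come first, because they are the DNA at which the peaks were centred. They are shown for 5 of the 8 genes with such a summit. Each is read from the Release 6 assembly (dm6) in the direction of the named gene, 5′ to 3′, covers up to 50 bp to each side of the summit, and is shortened where an annotated UTR begins. Capitals mark AAATTAA or its reverse complement TTAATTT, letters that were chosen after the sequences had been seen.
mRpS10, chr3R:15229488-15229588, plus strand: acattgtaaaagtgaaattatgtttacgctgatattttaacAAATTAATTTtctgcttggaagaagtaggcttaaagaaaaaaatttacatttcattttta
mRpS23, chr2L:13835424-13835524, minus strand: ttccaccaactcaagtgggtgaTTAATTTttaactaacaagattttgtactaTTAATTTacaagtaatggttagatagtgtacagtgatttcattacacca
mRpL23, chr3L:2373511-2373596, minus strand: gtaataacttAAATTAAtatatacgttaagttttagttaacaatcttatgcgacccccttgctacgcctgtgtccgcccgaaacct
mRpL24, chr2L:4945432-4945532, minus strand: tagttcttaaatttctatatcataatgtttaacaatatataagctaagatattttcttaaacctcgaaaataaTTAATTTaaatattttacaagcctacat
mRpL47, chr3R:9515937-9516006, minus strand: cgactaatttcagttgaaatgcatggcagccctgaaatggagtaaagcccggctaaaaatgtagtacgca
The letters occur in the stretches of mRpS10, mRpS23, mRpL23 and mRpL24, and not in that of mRpL47. Of the genes not shown, mRpL52 has them under its stronger summit, and mRpL41 and mRpL53 do not have them.

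A different sequence recurred at the transcription start sites (TSS) of these genes, outside the 50 bp to each side of the reproducible summits. Capitals mark the E-box CAGCTG, a palindrome of the kind bound by basic helix-loop-helix proteins, in 30 bases of the same assembly in the direction of the gene. The mRpL24, mRpL47 and mRpL23 sites belong to genes with a reproducible summit. Those of mRpL24 and mRpL47 lie inside the peak of that summit, and that of mRpL23 lies outside it. The other sites belong to genes with no summit in any list.
mRpL24, chr2L:4945324-4945353, minus strand: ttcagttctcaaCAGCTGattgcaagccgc
mRpL47, chr3R:9515873-9515902, minus strand: ttgttattgcttCAGCTGttttgttcggtc
mRpL23, chr3L:2373715-2373744, minus strand: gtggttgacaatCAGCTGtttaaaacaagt
mRpS35, chr3L:2780875-2780904, plus strand: agtttctgtaaaCAGCTGattgcttgctat
mRpS34, chr3L:16348064-16348093, plus strand: agccagccggcaCAGCTGttcgaccttccc
mRpS9, chr3R:7902710-7902739, minus strand: ggcgccaaaaatCAGCTGaaagcttgtgtg
mRpL40, chr3R:11407929-11407958, plus strand: cagcaacaaaaaCAGCTGttcgtacattac
mRpS25, chrX:14582959-14582988, minus strand: tagccgaccgatCAGCTGttcgcattacac
The E-box centre lay 23 bp after the TSS in mRpL24, 21 bp after it in mRpL47 and 25 bp before the most upstream TSS of mRpL23. In the genes without a summit it lay between 57 bp before the TSS (mRpS9) and 26 bp after it (mRpL40).

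Each gene was scored by whether a summit, the position the peak caller gave as the top of a peak, fell no more than 500 bp from a TSS of that gene. This was done in 4 deposited lists: the peaks of replicate 2, those of replicate 3, those called on both replicates pooled (30000 peaks in each list) and the reproducible set chosen from them by the irreproducible discovery rate (IDR, 1874 peaks). The IDR peaks are the 1874 strongest pooled peaks, so a peak has the same rank in both lists. Peaks were ranked by the authors' signal, whose scale is not stated, with rank 1 the strongest. A list length is not a depth, and the number of reads behind each peak is unknown. Intervals are exact (Clopper-Pearson) 95% intervals, which cover only the counting of genes. No test against other genes was made.

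Most mitochondrial ribosomal protein genes had a summit in at least 1 list, but few had one in the reproducible set. An IDR summit lay at 8 of 73 genes (11%, interval 4.85 to 20.5%), namely mRpL52, mRpS10, mRpS23, mRpL41, mRpL23, mRpL24, mRpL47 and mRpL53, beside 6.32% of all protein-coding genes. The background share lies inside that interval. When each summit was given only to the nearest TSS, 4 genes remained (5.48%, beside 5.06% of all genes). Among them was mRpL53, whose TSS is no nearer to the summit than that of CG33155. In the pooled list 52 genes had a summit (71.2%, interval 59.4 to 81.2%), beside 46.7% of all genes. In replicate 2 there were 53 (72.6%, interval 60.9 to 82.4%), beside 44.5%, and in replicate 3 there were 49 (67.1%, interval 55.1 to 77.7%), beside 46.8%. Summits of both replicates lay within 100 bp of each other at 22 genes (30.1%, interval 19.9 to 42%), beside 23.5% of all genes. With nearest-TSS assignment the shares in the long lists were also closer to the background: 50.7% beside 40% pooled, 52.1% beside 38.2% in replicate 2 and 43.8% beside 40.3% in replicate 3. With summits counted for every gene within 500 bp, the background share lay below the interval in each long list taken alone. It lay inside the interval where the replicates had to place their summits at the same site.

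**Figure D1:**
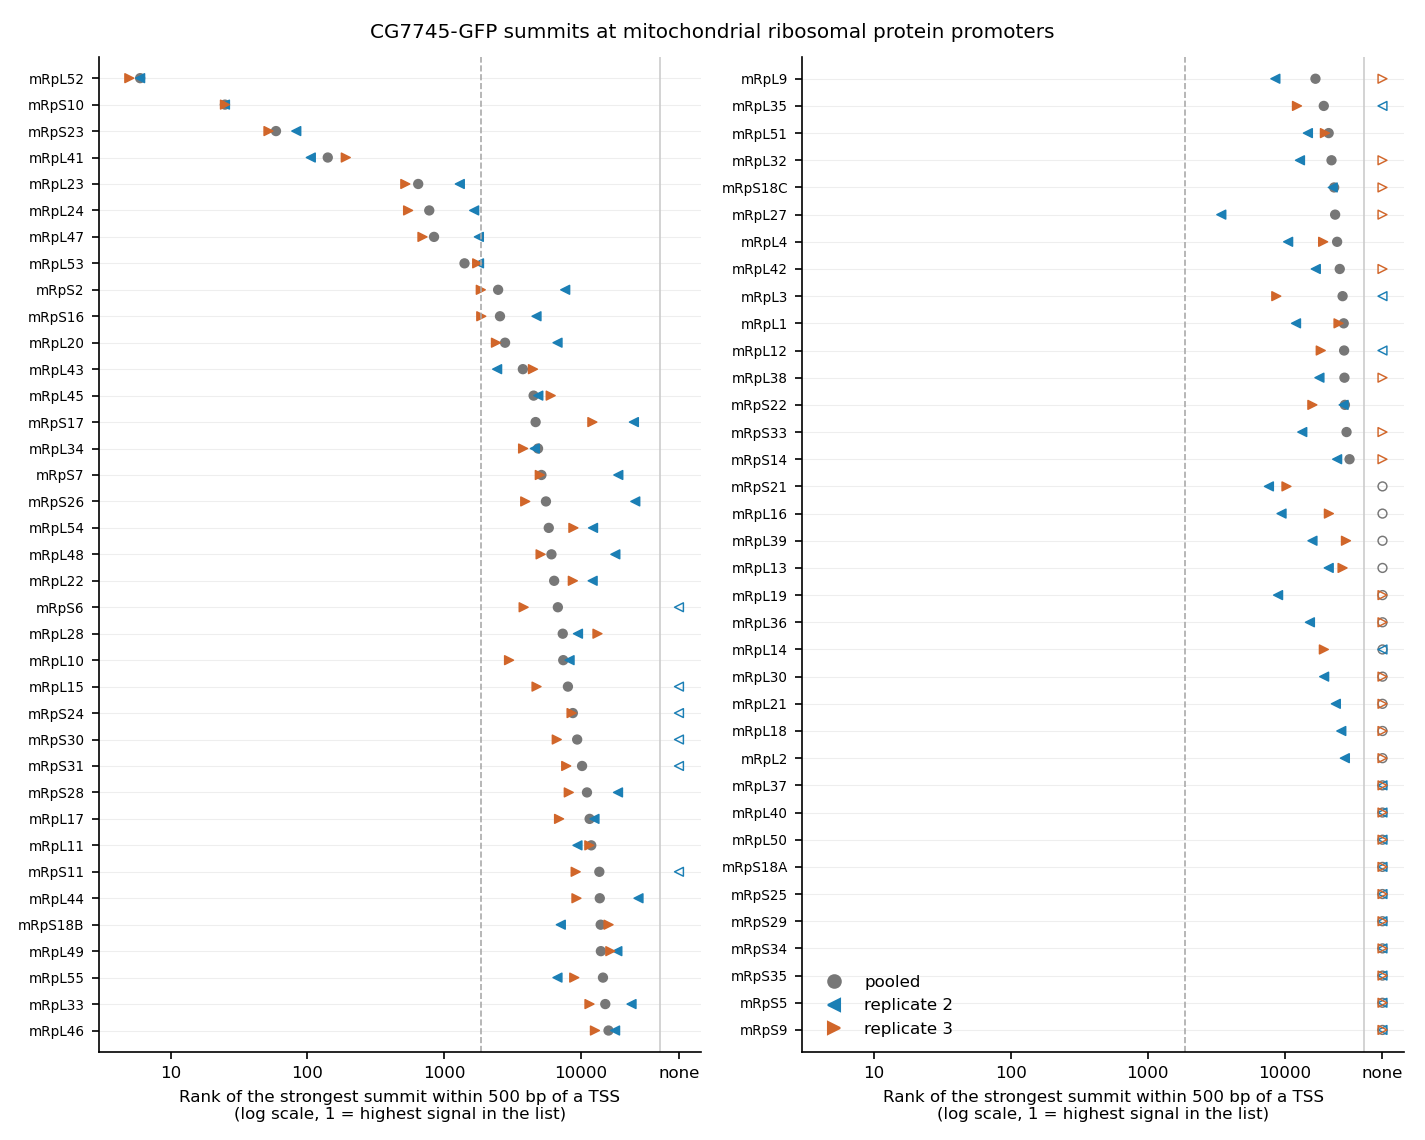
Rank of the strongest summit within 500 bp of a TSS for each of the 73 genes in the pooled list (circles), replicate 2 and replicate 3 (triangles) on a log scale; open symbols at "none" mark genes without such a summit, and the dashed line is the end of the IDR set at rank 1874. The 8 genes left of that line in the pooled list are spread from rank 6 to rank 1408, and 10 genes have open symbols alone.

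The strongest of the peaks lay at mRpL52, a large-subunit protein without a bacterial counterpart (FBgn0033208, chromosome 2R, peak from 7674170 to 7674785). Its summit, 62 bp upstream of the TSS, ranked 6 in the pooled list with a signal of 2065, 6 in replicate 2 with 753.4 and 5 in replicate 3 with 1313. The same interval carries another summit, 261 bp upstream, which ranked 190 with a signal of 334.9. The promoter is divergent: CG12107 starts 50 bp away on the opposite strand, and the stronger summit lies in its 5′ UTR, 12 bp from its TSS. The next was mRpS10, the counterpart of bacterial S10 in the small subunit (FBgn0038307, 3R, 15229410 to 15229673). It ranked 25 in all 3 lists, with a signal of 861.3 pooled, 350.4 in replicate 2 and 513.2 in replicate 3, and its pooled summit lay 127 bp upstream. The summit is about midway between mRpS10 and Art3, which encodes an arginine methyltransferase and whose TSS is 130 bp away.

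The next 2 peaks ranked between 52 and 191 in every list. At mRpS23, a small-subunit protein found only in mitochondrial ribosomes (FBgn0260407, 2L, 13835343 to 13835590), the summit ranked 59 pooled (signal 569.6), 83 in replicate 2 (182.1) and 52 in replicate 3 (373.9). It lay 402 bp upstream of mRpS23 and only 90 bp upstream of CenG1A, which encodes a GTPase-activating protein of the centaurin family. With 250 bp in place of 500 bp, mRpS23 was the gene lost from the 8. At mRpL41, a large-subunit protein without a bacterial counterpart (FBgn0034001, 2R, 15217644 to 15217870), the summit ranked 141 pooled (signal 382.1), 106 in replicate 2 (167.6) and 191 in replicate 3 (215.3), 106 bp upstream of the TSS. This was the only peak of the 8 with no other protein-coding TSS within 500 bp of its summit. The nearest opposite-strand start, of CG8079, was 762 bp from that of mRpL41.

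The remaining 4 ranked from 646 to 1408 in the pooled list. At mRpL23, whose bacterial counterpart lines the exit of the peptide tunnel (FBgn0035335, 3L, 2373505 to 2373694), the summit ranked 646 pooled (signal 198.7), 1301 in replicate 2 (63.3) and 520 in replicate 3 (137.5). It lay 60 bp upstream of the nearest of the 3 annotated starts of mRpL23, within an intron of its longer transcripts, and 167 bp upstream of CG9004. At mRpL24, whose bacterial counterpart starts large-subunit assembly (FBgn0031651, 2L, 4945284 to 4945679), the summit ranked 778 pooled (signal 182.3), 1657 in replicate 2 (57.1) and 545 in replicate 3 (134.7). It lay 121 bp upstream of mRpL24 and 97 bp upstream of betaggt-I, the beta subunit of the type I geranylgeranyl transferase.

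At mRpL47, the counterpart of bacterial L29 (FBgn0014023, 3R, 9515789 to 9516184), the summit ranked 843 pooled (signal 176.5), 1793 in replicate 2 (55.3) and 694 in replicate 3 (122). It lay 79 bp upstream of mRpL47 and 20 bp upstream of the common start of CG8176 and Kdm3, the latter a histone demethylase gene. At mRpL53, a large-subunit protein without a bacterial counterpart (FBgn0050481, 2R, 13953935 to 13954330), the summit ranked 1408 pooled (signal 138.4), 1797 in replicate 2 (55.2) and 1743 in replicate 3 (81.7). It lay in an intron of AGO1, the Argonaute of the microRNA pathway, 62 bp upstream of the start that mRpL53 shares with CG33155 and 108 bp upstream of a TSS of AGO1. Each of the 8 was also within the strongest 1874 peaks of either replicate taken alone. With the strongest 1874 peaks of replicate 2 in place of the IDR set the same 8 genes had a summit, and with those of replicate 3 the 8 were joined by mRpS2 and mRpS16. All 8 peaks had the highest −log10 q-value of the pooled list, 3.56, which 1810 of its peaks share.

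**Figure D2:**
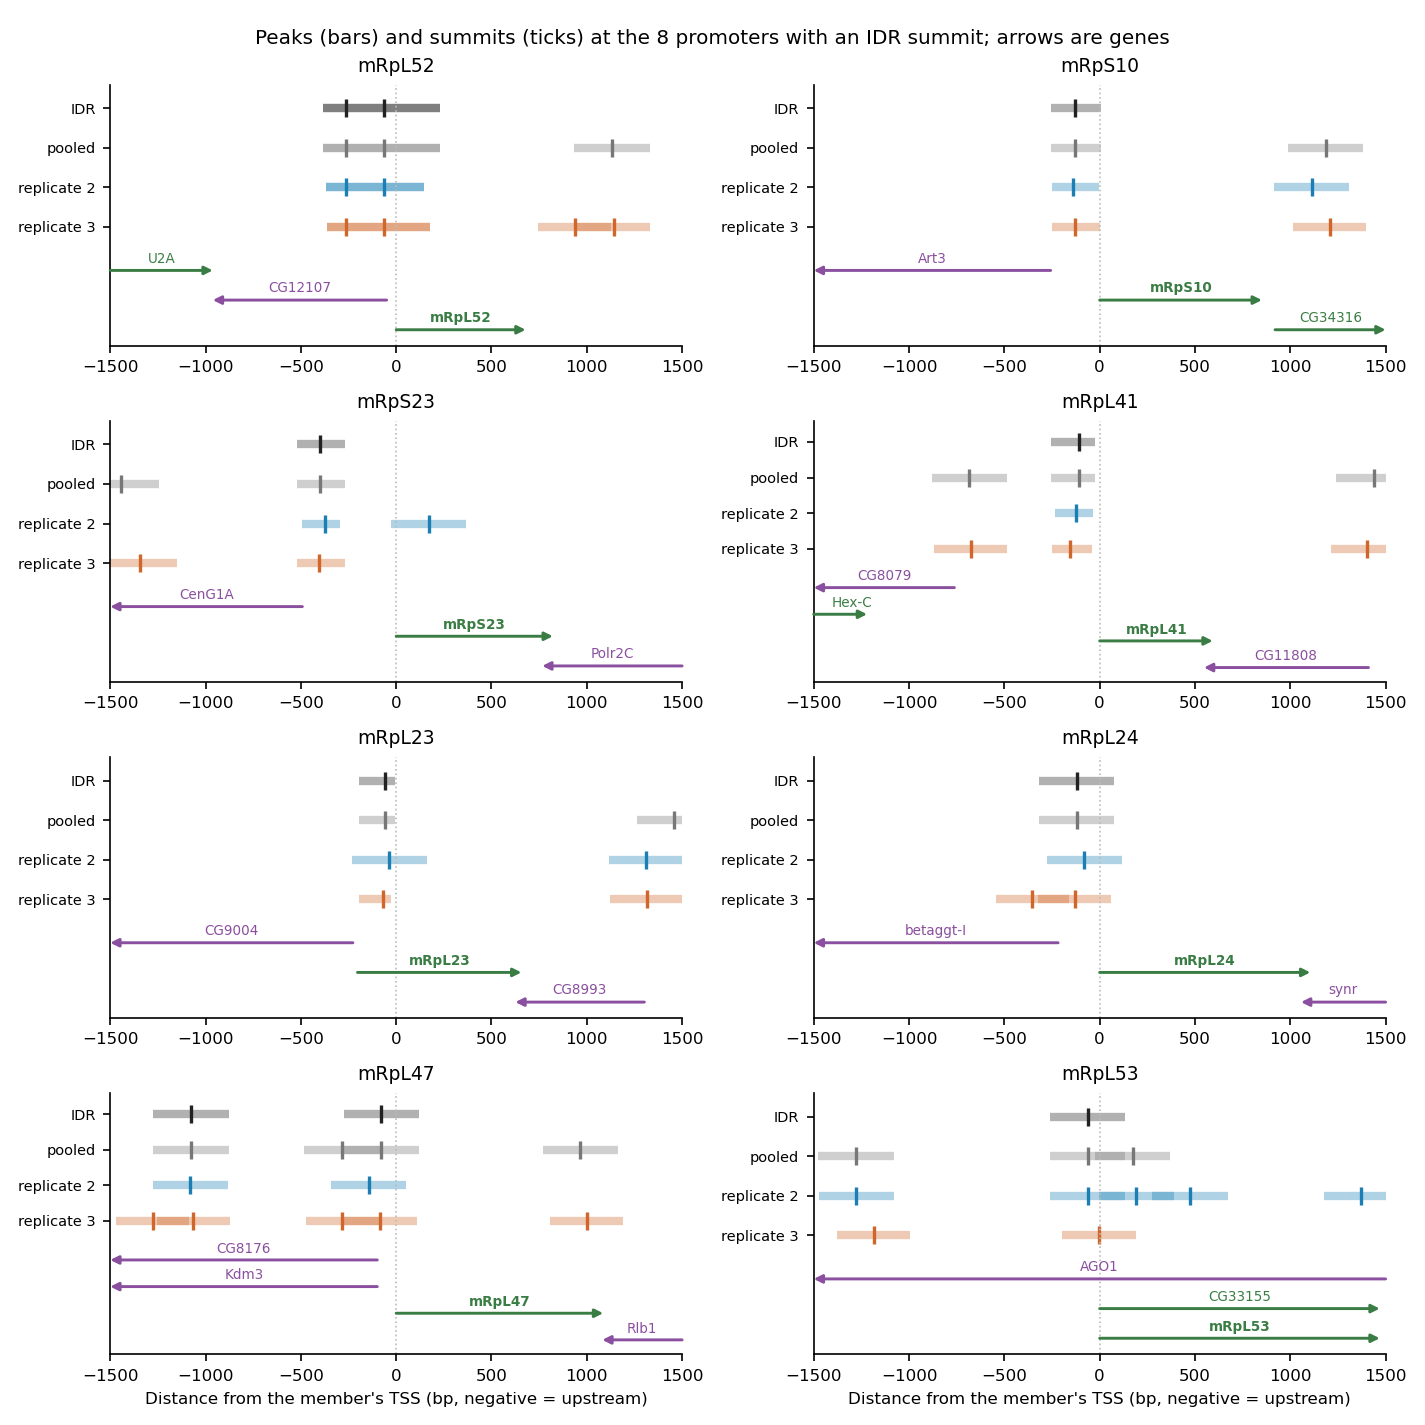
Peaks (bars) and summits (ticks) of the 4 lists around the TSS of each gene with an IDR summit, in bp with upstream negative; arrows are protein-coding genes, green in the direction of the named gene and purple in the opposite direction. In each of the 8 panels the replicates have a summit close to the IDR summit, and in 7 of them another gene starts within 500 bp of it.

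The 8 summits were all upstream of the gene's nearest TSS, at a median of −92.5 bp (quartiles −122.5 and −62), and 7 of 8 were within 150 bp (87.5%). Among all 881 protein-coding genes with an IDR summit the median was −105 bp, with 74.1% upstream and 57% within 150 bp. Shares upstream leave out summits exactly on a TSS. None of the 8 lay within 50 bp of the TSS of the mitochondrial ribosomal protein gene itself, whereas those of mRpL52 and mRpL47 lay 12 and 20 bp from the TSS of a neighbour. The 52 genes with a pooled summit had a broader distribution, with a median of −59.5 bp (quartiles −220.2 and 31.5), 35 upstream and 17 downstream (67.3% upstream, beside 63.5% of all genes). The strongest summits were upstream at 52.8% of the genes in replicate 2, beside 60.4% of all genes, and at 75.5% in replicate 3, beside 64%, with medians of −37 and −65 bp. The difference from the background thus had opposite signs in the replicates. Measured to the nearest summit at any distance, the median of the 73 genes was 203 bp in the pooled list, beside 657 bp for all genes, 251 beside 745 bp in replicate 2 and 240 beside 641 bp in replicate 3. To the nearest IDR summit it was 17540 bp, beside 27229 bp.

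Most of these genes start back to back with another gene. An opposite-strand protein-coding TSS lay within 1000 bp of a TSS at 58 of the 73 (79.5%), beside 36.9% of all protein-coding genes, and in all 58 it lay upstream, so that the genes diverge. No such partner was itself a mitochondrial ribosomal protein gene. The genes are also short, with a median span of 909 bp beside 2166 bp, and 91.8% have 1 annotated TSS beside 73.5%. A partner's promoter can bring its peaks into the same 500 bp, although partners were counted out to 1000 bp. The counts were therefore set beside all genes with an opposite-strand start within 1000 bp, upstream or downstream of their own. That comparison group is wider than divergent genes, and whether the partners account for the counts was not tested. Among the 58 divergent genes 8 had an IDR summit (13.8%, interval 6.15 to 25.4%), beside 9.43% of all genes with an opposite-strand start within 1000 bp. The pooled list had a summit at 46 (79.3%, interval 66.6 to 88.8%), beside 66.1%, and matched summits of both replicates were found at 20 (34.5%, interval 22.5 to 48.1%), beside 34.8%. For matched summits the share was thus close to that of all genes with such a start. Of the 15 genes without such a partner none had an IDR summit (interval up to 21.8%), beside 4.5% of all such genes. A pooled summit lay at 6 of these 15 (40%, interval 16.3 to 67.7%), beside 35.3%, and matched summits at 2 (13.3%, interval 1.66 to 40.5%), beside 17%. Among genes with 1 annotated TSS the shares were 8.96% for IDR summits (6 of 67) beside 4.28%, and 70.1% for pooled summits (47 of 67) beside 39.4%.

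**Figure D3:**
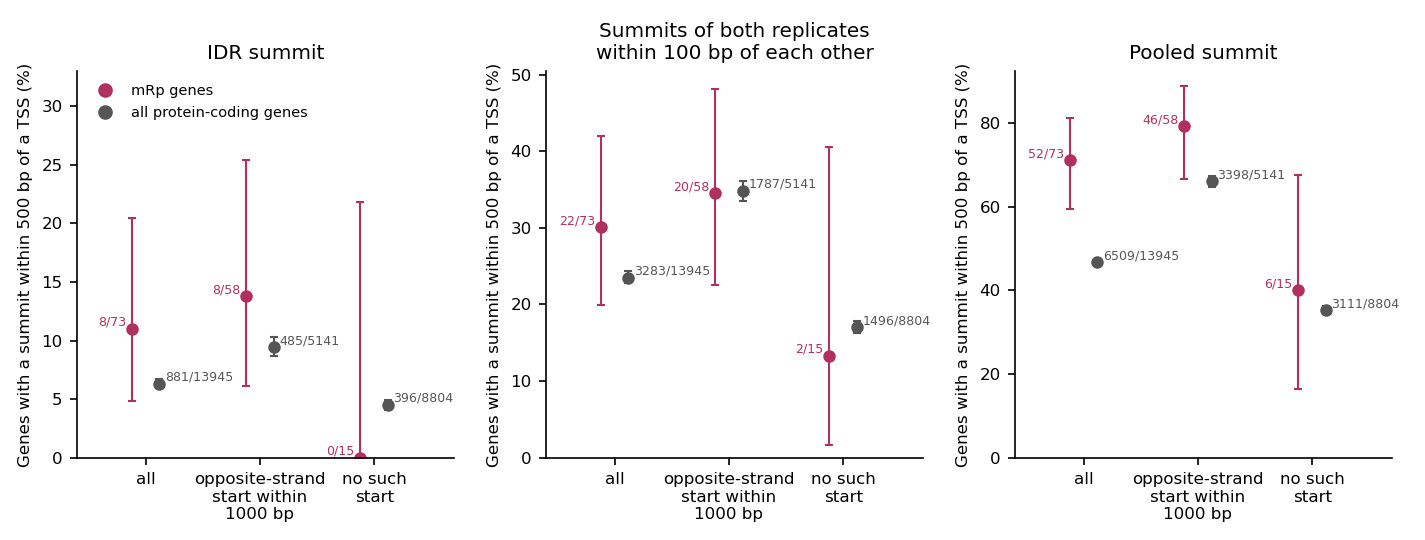
Share of genes (%) with a summit within 500 bp of a TSS, for the mitochondrial ribosomal protein genes (mRp, red) and all protein-coding genes (grey), split by an opposite-strand TSS within 1000 bp; bars are exact 95% intervals and the fractions are gene counts. The red and grey points for matched summits of genes with such an opposite-strand TSS (34.5 and 34.8%) are nearly level, and no red point for IDR summits lies above 0 without one.

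Below the IDR set the ranks of these genes spread through the whole pooled list. Of the 73, 7 had their strongest pooled summit at ranks 1875 to 5000 (9.59%, beside 9.15% of all genes), 11 at 5001 to 10000 (15.1% beside 10.7%), 13 at 10001 to 20000 (17.8% beside 12.9%) and 13 at 20001 to 30000 (17.8% beside 7.59%). The remaining 21 had no pooled summit (28.8% beside 53.3%). Where a summit was present, its median rank was 9778, beside 8466 for all genes with one, and in the replicates it was 12163 beside 9161 (replicate 2) and 8532 beside 8428 (replicate 3). The listed share was thus larger than that of all genes, while the median ranks were weaker than those of all genes, by little in replicate 3. In the weakest class, ranks 20001 to 30000, the share was 15.1% beside 8.07% in replicate 2 but 5.48% beside 7.5% in replicate 3, so the pooled pattern was not shared by both replicates.

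**Figure D4:**
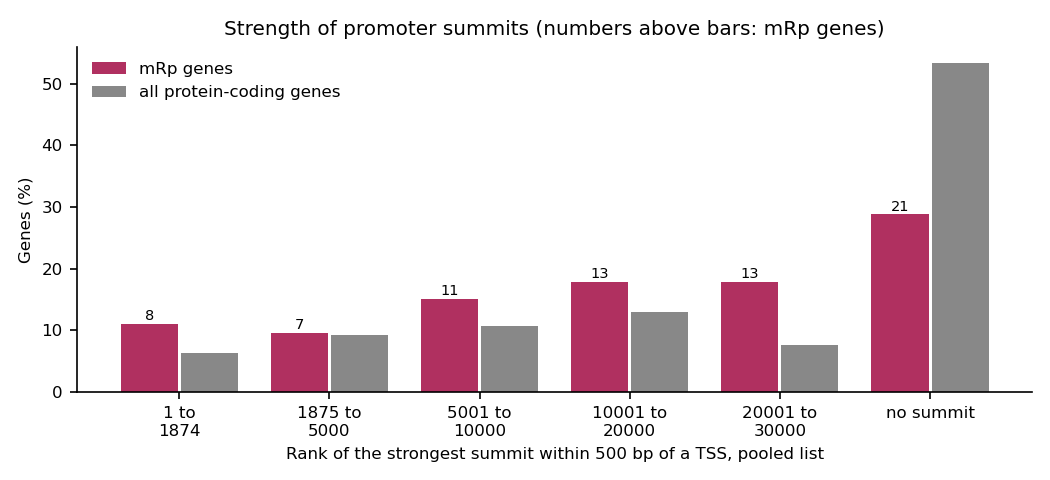
Share of genes (%) by the rank of the strongest pooled summit within 500 bp of a TSS, for the mitochondrial ribosomal protein genes (mRp, red) and all protein-coding genes (grey), with the number of mRp genes above each red bar. In this list the widest gaps between the bars are in the weakest class (17.8 against 7.59%), which replicate 3 alone does not show, and among genes without a summit (28.8 against 53.3%).

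Just outside the IDR set stood mRpS2 and mRpS16, both counterparts of bacterial small-subunit proteins. The mRpS2 summit ranked 2479 pooled (signal 107.4), 7665 in replicate 2 (29.8) and 1852 in replicate 3 (79.3), at −161, −148 and −152 bp, so the replicates placed it alike and ranked it differently. The mRpS16 summit ranked 2558 pooled (signal 105.7) and lay 34 bp upstream. Replicate 3 had it at −33 bp (rank 1867), whereas the strongest of replicate 2 lay at −172 bp (rank 4728), and no pair was within 100 bp. Next came mRpL20, whose bacterial counterpart is needed for assembly of the large subunit, at rank 2786 (signal 101.9, −215 bp), with the replicates at −214 and −215 bp. The mitochondria-specific mRpL43 followed at rank 3758 (signal 88.5, −203 bp), and mRpL45, whose mammalian counterpart sits near the tunnel exit at the inner membrane, at rank 4505 (signal 81.3, −42 bp). The mRpL45 promoter is among the 15 without a divergent partner, and its replicate summits ranked 4875 and 6004.

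The other 5 of the 10 strongest outside the IDR set were less alike between replicates. For mRpS17, ranked 4659 (signal 79.9, −498 bp), the strongest summits lay at 251 bp in replicate 2 and −416 bp in replicate 3. For mRpL34, ranked 4852 (signal 78.5, −395 bp), they lay at −398 and −139 bp. For mRpS7, whose bacterial counterpart organises the head of the small subunit, the pooled summit ranked 5136 (signal 76.5, 86 bp), with the replicates at 95 and −55 bp. Those of mRpS26 lay at 423 and −394 bp around a pooled summit at −403 bp (rank 5544, signal 73.8), and those of mRpL54 at −315 and −21 bp around one at −57 bp (rank 5812, signal 72.3). Several of these promoters hold more than 1 summit, so the strongest in each replicate need not be the same site. A weaker pair within 100 bp was nevertheless present for mRpS17, mRpS7 and mRpL54.

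Outside the IDR set, 14 genes had a pooled summit and summits of both replicates within 100 bp (19.2%, beside 17.4% of all genes). Besides mRpS2, mRpL20, mRpL43, mRpL45, mRpS17, mRpS7 and mRpL54 these were mRpL48, mRpL28, mRpS18B, mRpL44, mRpL11, mRpL49 and mRpL22. Their strongest pooled summits ranked from 2479 (mRpS2) to 13971 (mRpL49), but the matched pair need not lie at that summit. At mRpS17 the pair lay at 251 and 350 bp and the strongest pooled summit at −498 bp. At mRpL28 the pair lay at 177 and 211 bp and the strongest pooled summit at −1 bp. Another 30 had a pooled summit without such a pair (41.1%, beside 23.3%), with ranks from 2558 (mRpS16) to 29873 (mRpS14). A summit in replicate 2 and none in replicate 3 was found at 14 genes (19.2%, beside 8.72%), and the reverse at 10 (13.7%, beside 11%). Summits in both replicates at any distance were found at 39 (53.4%, beside 35.8%).

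Across the 39 promoters listed in both replicates, Spearman's rho between the ranks of their strongest summits was 0.69, and Pearson's r of the log10 ranks was 0.93. These describe promoters that share libraries and a control, and much of their size comes from the 8 IDR genes. Over the other 31, rho was 0.38 and r was 0.44. For all 4993 protein-coding genes listed in both, rho was 0.57 and r was 0.73. The ranks of a gene differed by a median of 1.8-fold, and 24 of the 39 ranked higher in replicate 3, 14 in replicate 2, with mRpS10 at 25 in both. The widest ratio was that of mRpS26, at rank 24921 in replicate 2 and 3912 in replicate 3 (6.37-fold), where the summits were different sites. It was followed by mRpS2 (7665 and 1852, 4.14-fold), mRpS7 (18732 and 4998, 3.75-fold), mRpL48 (17819 and 5067, 3.52-fold) and mRpL24 (1657 and 545, 3.04-fold), all ranked higher in replicate 3. At mRpL48, a mitochondria-specific protein, the replicates placed the summit at −39 and −42 bp despite the difference in rank.

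No list had a summit at 10 genes (13.7%, beside 43.2% of all genes), namely mRpS5, mRpS9, mRpS18A, mRpS25, mRpS29, mRpS34, mRpS35, mRpL37, mRpL40 and mRpL50. They include mRpS29, the counterpart of the mammalian GTP-binding protein DAP3, mRpS9, whose bacterial counterpart reaches the P-site tRNA, and mRpS5, whose bacterial counterpart acts in decoding. Only 3 of them carry an mRpL symbol. For mRpS5 and mRpS18A the absence extends far beyond the promoter. The mRpS5 gene lies in the proximal part of 3L, where no list holds a summit past position 23102435, 1434801 bp from its nearest TSS. The mRpS18A gene lies in a stretch of 165225 bp on 3R, from 8477661 to 8642886, that holds 13 protein-coding genes and no summit of any list. Whether peaks could be called there was not tested. Genes more than 50000 bp from any summit make up 3.94% of all protein-coding genes, and without them 8 of 71 members (11.3%) and 40.9% of the 13395 protein-coding genes left had no summit. The nearest pooled summits of the remaining 8 genes were between 1380 bp (mRpL50) and 29516 bp (mRpS25) away, and replicate 3 had one 611 bp upstream of mRpS25, just beyond the limit.

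Genes of both symbol classes were represented. Among mRpL genes 6 of 47 had an IDR summit (12.8%, interval 4.83 to 25.7%) and among mRpS genes 2 of 26 (7.69%, interval 0.946 to 25.1%). Pooled summits lay at 34 of 47 (72.3%, interval 57.4 to 84.4%) and 18 of 26 (69.2%, interval 48.2 to 85.7%). In replicate 2 the shares were 83% (interval 69.2 to 92.4%) and 53.8% (interval 33.4 to 73.4%), whereas in replicate 3 they were 70.2% (interval 55.1 to 82.7%) and 61.5% (interval 40.6 to 79.8%). The intervals of mRpL and mRpS genes overlapped in all 4 lists. By origin as classed here, 4 of 43 genes classed with a bacterial counterpart had an IDR summit (9.3%) and 4 of 30 classed without one (13.3%). Pooled summits lay at 69.8% and 73.3%. The assignment of single genes to these classes was not tested. By chromosome arm, IDR summits lay at 3 of 12 genes on 2R, 2 of 12 on 2L, 2 of 21 on 3R, 1 of 17 on 3L and 0 of 11 on X (interval up to 28.5%). The X-linked genes had a summit at 7 of 11 in each of the other lists. Chromosome 4 holds none of the 73 genes.

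Other gene lists of mitochondrial and cytoplasmic translation were scored in the same way. Of 93 cytoplasmic ribosomal protein genes, 38 had an IDR summit (40.9%, interval 30.8 to 51.5%), 84 a pooled summit (90.3%, interval 82.4 to 95.5%) and 69 matched summits of both replicates (74.2%, interval 64.1 to 82.7%). None of these intervals overlapped those of the mitochondrial ribosomal protein genes, although fewer of the cytoplasmic genes had an opposite-strand start within 1000 bp (60.2 against 79.5%). Among genes with such a start alone the IDR shares were 44.6% (25 of 56) and 13.8% (8 of 58). Of 87 nuclear genes of the respiratory chain and ATP synthase, 4 had an IDR summit (4.6%, interval 1.27 to 11.4%), namely COX7C, ND-13B, ND-15 and ND-51, and 53 a pooled summit (60.9%, interval 49.9 to 71.2%). The list of 15 mitochondrial translation factor genes also takes in genes for mRNA binding and for membrane insertion. Of the 15, 1 had an IDR summit. It was SLIRP2, an mRNA-binding protein gene, at rank 358 (signal 254.2, −138 bp). Of 10 genes for transcription and replication of mitochondrial DNA 1 did, mtSSB for the single-stranded DNA binding protein, at rank 1288 (signal 144.5, −241 bp). Of 15 mitochondrial aminoacyl-tRNA synthetase genes 0 did (interval up to 21.8%), and 5 had a pooled summit (33.3%, interval 11.8 to 61.6%). The mitochondrial lists therefore had intervals that overlapped that of the ribosomal protein genes in the IDR set.

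Of the 12 known promoter motifs searched, the E-box printed above was found at the most of these genes. It was found on either strand in the window from 250 bp before to 50 bp after the most upstream TSS at 40 of 73 genes (54.8%), beside 17.7% of all protein-coding genes. It was also found at 5 of the 10 genes for transcription and replication of mitochondrial DNA (50%), 46.7% of the mitochondrial aminoacyl-tRNA synthetase and 46.7% of the mitochondrial translation factor genes, 24.1% of the respiratory chain genes and 9.68% of the cytoplasmic ribosomal protein genes. Its 45 matches in mitochondrial ribosomal protein genes were centred at a median of 5 bp after the TSS (quartiles −31 and 19), and 36 (80%) lay within 50 bp, beside 51.2% of the 2776 matches in all genes, whose median was −48 bp. The longer form CAGCTGTT, chosen after the printed sites had been seen and contained in the shorter, was found at 27 (37%) beside 7.61%, and at 40% of the genes in both the synthetase and the translation factor list. Among genes with an opposite-strand start within 1000 bp, CAGCTG was found at 53.4% of the mitochondrial ribosomal protein genes beside 22% of all.

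**Figure D5:**
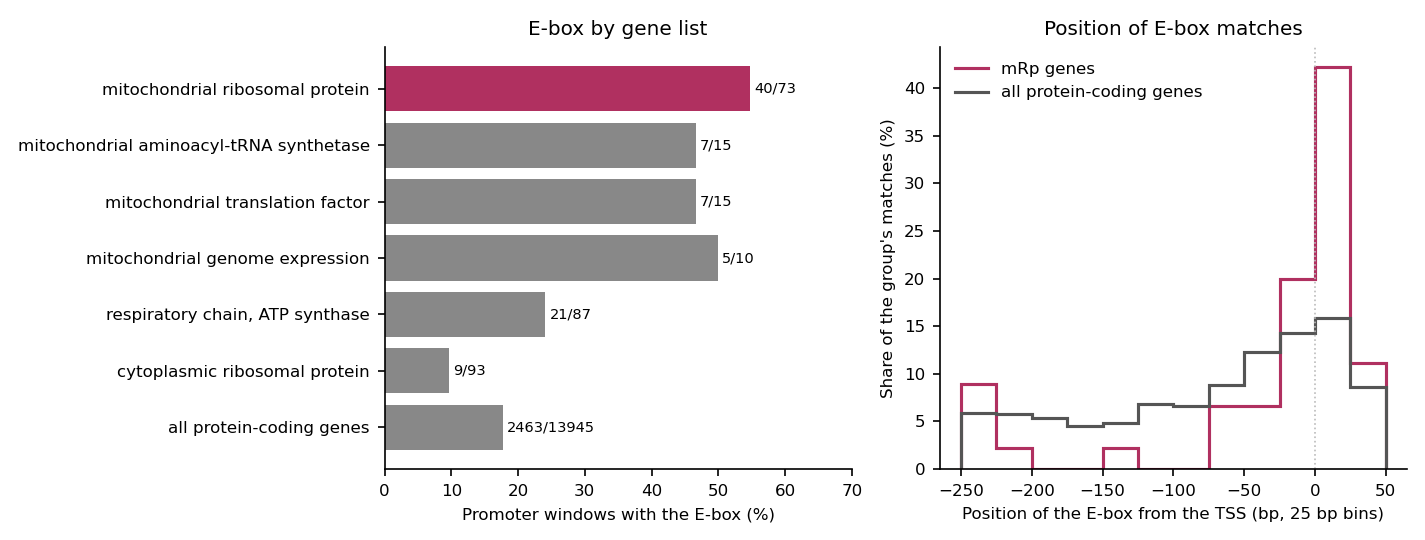
Left, share of promoter windows (%) with the E-box CAGCTG by gene list, with counts beside the bars; right, position of the matches from the TSS (bp, 25 bp bins) as a share (%) of the matches of each group. The mitochondrial ribosomal protein genes (mRp) have the longest bar, 40 of 73, and 42.2% of their matches fall in the 25 bp after the TSS, against 15.9% for all genes.

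The E-box was present at 28 of 52 genes with a pooled summit (53.8%) and at 12 of 21 without one (57.1%), and at 5 of the 10 genes with no summit in any list. Among all protein-coding genes it was present at 21% of those with a pooled summit and 14.7% of those without. Of the 8 IDR genes 6 had it (75%), all but mRpS10 and mRpS23, each with a match no more than 40 bp from the TSS. Of the 65 genes without an IDR summit 34 had it (52.3%). At the IDR genes the match no more than 40 bp from the TSS lay inside the IDR peak at mRpL24, mRpL47, mRpL52 and mRpL53. At mRpL23 and mRpL41 it lay outside that peak. None of the 9 windows of 101 bp around the IDR summits of these genes held the E-box, beside 3.9% of all IDR summit windows. Around the 66 pooled summits at these genes 12 windows held it (18.2%), beside 5.07% of all pooled summits and 4.42% of windows 500 bp to either side. The summits counted at these genes all lie within 500 bp of a TSS. The shares of all pooled or IDR summits include summits at any distance from a TSS, so the groups are not alike in position. The letters AAATTAA marked in the summit stretches were present in 5 of the 9 IDR summit windows (55.6%; the printed mRpS10, mRpS23, mRpL23 and mRpL24, and mRpL52), beside 18.1% of all IDR summit windows and 6.56% of the windows beside them. Around the 66 pooled summits it was present in 7 (10.6%, beside 9.09%), and in the promoter windows at 30.1% beside 23.1%. Because these letters were picked from the windows they are counted in, their share there is a description of those windows.

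The TATA letters TATAAAA were found at 23 of the 73 promoters (31.5%, beside 24.2% of all). The DNA replication-related element TATCGATA was found at 15 of 73 promoters (20.5% beside 9.36%). It was in none of the 9 IDR summit windows, beside only 1.44% of all IDR summit windows. Among genes with an opposite-strand start within 1000 bp the promoter shares were 20.7% beside 15.6%. The core promoter Motif 1 letters GGTCACAC were found at 8 promoters (11% beside 7.7%). Among genes with an opposite-strand start the shares were 12.1% beside 13%. These letters were also in 6 of the 66 pooled summit windows (9.09% beside 0.847%), at mRpL48, mRpL27, mRpS16, mRpL34, mRpS6 and mRpL22. As for the E-box, these windows all lie near a TSS, whereas those of all pooled summits need not. A share for promoter summits alone was not computed. The Ohler 6 core letters GGTATTT were found at 8 promoters (11% beside 9.87%). They were also in 2 of the 9 IDR summit windows (22.2%, beside 2.77% of all IDR summit windows), at mRpL52 and mRpL41. The Ohler 7 core letters CAGCNCTG were found at 10 promoters (13.7% beside 7.31%), and the E-box CACGTG at 5 (6.85% beside 4.2%). The GAGA letters GAGAGAG were found at 1 promoter (1.37% beside 5.87%). The ETS core CCGGAAG, the NRF1 consensus, the TCT initiator CTCTTTCT and the Zelda letters CAGGTAG were found at none, beside 1.09, 0.724, 1.71 and 1.64% of all promoters.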

How the data were processed

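The peak lists were used as the authors deposited them, on build dm6. Per the labels and the file lists deposited with each sample, each replicate and the pool of both were set against 1 control, and the IDR set was taken from the resulting lists. For the aligner, the caller and the IDR threshold, names and settings were not given in the sources used here. Ranking used the deposited signal, whose scale is unstated. The deposited −log10 q-value runs up to 3.56 in the pooled list, 2.63 in replicate 2 and 3.68 in replicate 3, and was not used for ranking. Because both replicates share a control, regions that deviate in it enter both lists alike.

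Genes and TSS came from the Ensembl release 115 annotation on 6 arms, and sequences from the Release 6 assembly. Replicate summits were matched within 100 bp. Every gene with an IDR summit, the next 10 by pooled rank, the genes at the end of the IDR set, those without any summit, the 5 with the largest rank ratios and the genes sharing an IDR peak are named. The genes, lists and the first 12 of 14 motifs were chosen with earlier results of these data known. The letters AAATTAA and CAGCTGTT, the bacterial-counterpart classes and the description of stretches without summits were added after the values had been seen. The other lists had 3 entries without a match (mtEF4, mtRF1 and tam). Mitochondrial-genome peaks entered no count. Alternatives were other distances, list lengths, peak assignments and each replicate alone. The code (NumPy 2.4.6, SciPy 1.17.1, pandas 2.3.3 and matplotlib 3.10.9 under Python 3.11.15) was tested on simulated data.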

Additional observations from a re-analysis of the deposited data

Results flagged for a closer look

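The replicate 2 list holds 19 peaks on the mitochondrial genome, on 13 distinct intervals, with signals from 83.9 to 6952. They drew attention because they lie outside the genes compared above and because replicate 3, the pooled list and the IDR set hold 0 such peaks each, against a limit of 3 for a count of 0. Of their summits, 2 lie in mt:lrRNA, the gene of the large-subunit rRNA of the mitochondrial ribosome, with signals of 1837 and 3684, and 0 lie in mt:srRNA, that of the small subunit. The strongest nuclear peak of replicate 2 had a signal of 1884. The cause of the difference between the replicates was not tested, and these peaks enter no count of genes or ranks given above.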

How the results depend on the processing

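Over the alternatives tried, 30 values stayed within 1.5 times the count or within the spread of the replicates' medians, 10 moved beyond that and 0 changed sign. Only the median positions could change sign, since a count of genes cannot. With summits given to the nearest TSS alone, 4 genes had an IDR summit (5.48%, beside 5.06% of all genes) and 32 a replicate 3 summit (43.8 beside 40.3%). With the 5000 strongest pooled peaks in place of the IDR set, 15 did (20.5 beside 15.5%). With the 10000 strongest peaks, 26 had a pooled summit (35.6 beside 26.2%), 24 a replicate 2 summit (32.9 beside 23.7%), 31 a replicate 3 summit (42.5 beside 26.5%) and 12 summits of both within 100 bp (16.4 beside 12%). These 4 lower counts follow from the fewer peaks. Matching within 50 bp left 13 (17.8 beside 16%). With 1 replicate left out, IDR-set counts ran from 8 to 10 and pooled counts from 49 to 53, and the median pooled position from −65 to −37 bp. Within 1000 bp of a TSS that median was −121 bp. No paired analysis was possible because the labels give 1 group. Depth is unknown, and with 2 replicates the spread between them rests on 1 difference.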

Other observations

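Proteins of the mitochondrial ribosome whose genes carry other symbols fell outside the choice by symbol. The gene tko, which encodes the counterpart of bacterial S12, had a pooled summit 36 bp upstream of a TSS at rank 12052 (signal 50), a replicate 2 summit at rank 13261 (22.8, −137 bp) and a replicate 3 summit at rank 12051 (33.3, −43 bp). The gene bonsai, which encodes the counterpart of bacterial S15, had a summit in replicate 2 alone, at rank 7815 (signal 29.5, 36 bp downstream). Neither had an IDR summit, and both were looked up after the other values had been seen.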
